A study of Mus musculus with 58 samples.

Results

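The respiratory chain and the ATP synthase were described here by 103 protein-coding genes of the mouse, 13 encoded by the mitochondrial genome and 90 by nuclear genes. They were taken by gene symbol in the GENCODE annotation (the mt-Nd, mt-Co, mt-Cytb and mt-Atp genes, and the nuclear Nduf, Sdh, Uqcr, Cox4 to Cox8 and Atp5 families), and stood among 25307 genes of the deposited table. The symbol rule used no measured value, but the set was chosen with earlier results of these data known. Of 107 annotated genes that match, 4 are not analysed here (Cox4i2, Cox7b2, Cox8b and Cox8c). Atp5o stands under 2 overlapping identifiers, between which reads may be split; 1 of them passed the filter below. Complexes were assigned by symbol family alone, here and below, so their counts include members that are no subunit. Ndufa4 was placed in complex I by its symbol and not by a check of its place in the chain. Complex I, the NADH dehydrogenase, held 7 mitochondrial and 46 nuclear encoded members. Complex II, the succinate dehydrogenase, held 4 nuclear encoded members. Complex III, the cytochrome bc1 complex, held 1 and 8. Complex IV, the cytochrome c oxidase, held 3 and 14. Complex V, the ATP synthase, held 2 and 18. Of the nuclear encoded members, 80 code for subunits and 10 do not (the Ndufaf assembly factors, Cox7a2l and Atp5s).

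Macrophages and monocytes were taken from livers of 129SV mice: Kupffer cells (KC), the resident macrophages of the liver sinusoids; monocyte-derived macrophages (MoMF), which enter the liver from the blood; and monocytes (Mo). The livers came from mice with acute colitis given dextran sulfate sodium (DSS), with ligation of the common bile duct for 2 weeks (CBDL2w, onset of cholestatic injury) or 6 weeks (CBDL6w, advanced injury), with ligation and colitis together (CBDL+DSS), and from sham-operated controls at 6 weeks (Sham6w). No Sham group at 2 weeks and no time for DSS or CBDL+DSS is given, so CBDL2w and Sham6w differ in time as well as in ligation. There were 58 libraries, 4 in each of the 15 groups except MoMF Sham6w and Mo Sham6w with 3 each. 9 libraries carry 2 or 3 replicate numbers joined in 1 sample, and the labels do not say that replicates are separate animals, so p-values measure the spread between these samples.

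The respiratory chain passes electrons through complexes I to IV in the inner mitochondrial membrane, pumps protons, and lets the ATP synthase make ATP from the gradient. The mitochondrial genome codes for the core membrane subunits that pump protons or bind the electron carriers, and it is transcribed as long polycistronic RNAs by a polymerase of its own; all other subunits are transcribed in the nucleus and imported. In macrophages the balance between respiration and glycolysis is known to shift with activation, with inflammatory activation raising glycolysis.

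RNA was measured by 3′ tag sequencing with unique molecular identifiers, and the table holds the authors' normalised read counts, from which whole reads were recovered. Libraries held 228741 to 521954 reads in KC, 118687 to 461071 in MoMF and 235531 to 377725 in Mo. Kupffer cell markers (10 genes, all above 0 in each KC group) made up 0.729% to 0.825% of reads in KC of Sham6w and 0.251% to 0.433% in KC of CBDL6w, and 0.0269% to 0.281% in MoMF and 0.0159% to 0.103% in Mo over all groups. Monocyte-derived macrophage markers (8 genes) made up 0.0837% to 0.304% in MoMF, 0.0161% to 0.236% in KC and 0.116% to 0.297% in Mo, so that they did not separate MoMF from Mo. Monocyte markers (8 genes) made up 0.27% to 0.618% in Mo, 0.0721% to 0.319% in MoMF and 0.0182% to 0.0921% in KC. The library MoMF Sham6w replicate 1+2+5 stood apart, with 118687 reads and 8885 genes detected; Ndufs3, Cox4i1 and Ndufa4 were at 0 in it. Of the members, 88 passed a filter on low values in KC, 86 in MoMF and 88 in Mo (3 or more libraries with a normalised count of at least 10), and 13 passed in none of them. For 13 other entries with a matching symbol, pseudogenes and other biotypes that were left out, reads may be shared with members. Values without MoMF Sham6w replicate 1+2+5 are given beside many, but not all, results that use MoMF of Sham6w. A result printed with no such value may depend on that library. Across 84 pairs of replicates no pair agreed within sampling noise (lowest chi-square per degree of freedom 2.81). In bulk samples such as these, fewer cells of a type and less RNA per cell cannot be told apart.

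As a share of all reads, mitochondrial encoded members were on average lower in KC of each injured group than in KC of Sham6w, and nuclear encoded members were on average higher in DSS than in Sham6w in all 3 cell types. In KC, mitochondrial encoded members took 3.23 ± 0.829% of reads in CBDL2w, 3.36 ± 1.04% in CBDL6w, 3.04 ± 0.47% in DSS and 3.92 ± 0.205% in CBDL+DSS, against 5.2 ± 0.807% in Sham6w (mean ± SD, n = 4 each). Nuclear encoded members took 1.94 ± 0.196% in KC of DSS against 1.34 ± 0.132% in KC of Sham6w, and 1.41% to 1.5% on average in the ligated groups. In MoMF the mitochondrial share was lowest in DSS, at 1.65, 1.5, 1.32 and 1.55%, and highest in CBDL+DSS, at 3.32, 3.8, 4.07 and 3.58%, against 1.97, 3.18 and 3.07% in Sham6w. These ranges did not overlap between DSS and either of the other groups. In Mo the mitochondrial share averaged 2.17 ± 0.179% in DSS and 2.71 ± 0.0377% in CBDL+DSS (n = 4 each), against 3.26 ± 0.706% in Sham6w (n = 3), where replicate 1+2+5 alone had 4.07%.

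By group mean, the log2 ratio of mitochondrial to nuclear encoded reads put colitis alone lowest of the 5 groups in each cell type. In KC it was 1.03, 0.611, 0.172 and 0.758 in DSS, against 1.5, 2.37, 2.06 and 1.87 in Sham6w. In MoMF it was 0.239, -0.0561, -0.344 and -0.201 in DSS, against 1.05, 1.24 and 1.23 in Sham6w. In Mo it was 0.405, 0.348, 0.386 and 0.0902 in DSS, against 1.94, 1.24 and 1.16 in Sham6w. The DSS and Sham6w libraries did not overlap in any of the 3 cell types, and the mean differences were -1.31 in KC, -1.27 in MoMF and -1.14 in Mo. Single ligated libraries lay within the DSS range, such as KC CBDL6w replicate 4 (0.567), MoMF CBDL2w replicate 4 (-0.0934) and Mo CBDL2w replicate 3 (0.143). When colitis was added to ligation, the ratio moved the other way in MoMF: CBDL+DSS had 1.36, 1.52, 1.66 and 1.39, against 0.454, 1.34, 0.184 and 0.0862 in CBDL6w, a mean difference of 0.96 with no overlap. Mo of CBDL+DSS had 0.944, 0.881, 0.8289 and 0.898, against 0.602, 0.253, 0.8215 and 0.541 in CBDL6w, narrowly without overlap. In KC the groups overlapped, with 1.5, 1.58, 1.09 and 1.41 in CBDL+DSS against 1.38, 1.18, 1.76 and 0.567 in CBDL6w. The one MoMF library of CBDL6w near the CBDL+DSS values was replicate 2, which had 183043 reads. The ratio describes 1 quantity per library over members chosen with earlier results known, and no test was made of it.

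**Figure D1:**
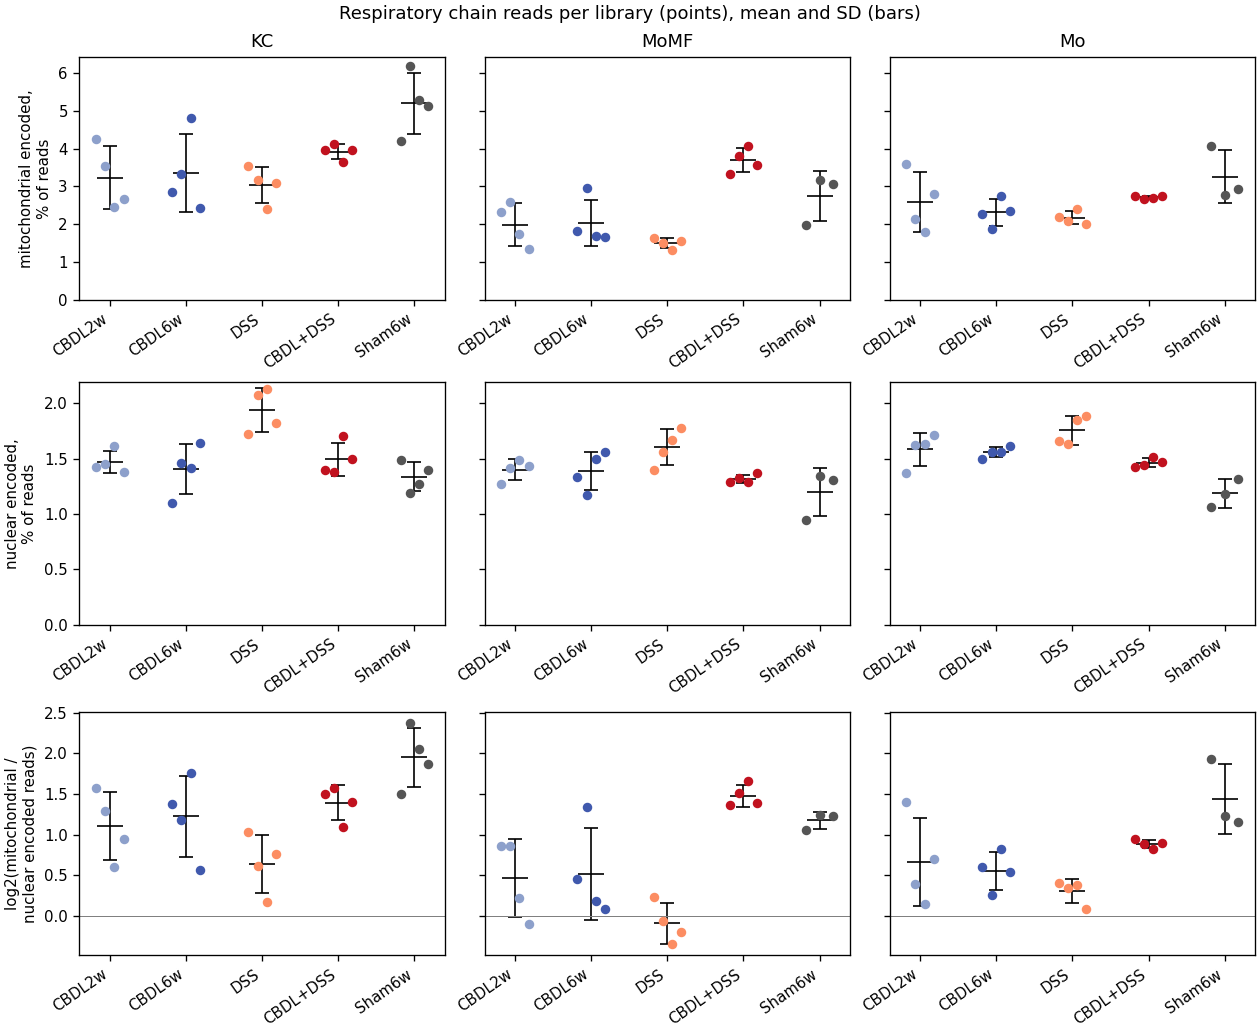
Share of reads of mitochondrial encoded members and of nuclear encoded members (percent) and their log2 ratio, by cell type and injury group; each point is 1 library, with the group mean and SD as bars. The mean ratio in DSS lies lowest in all 3 cell types, and the DSS libraries do not overlap those of Sham6w.

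Kupffer cells of DSS livers showed lower levels of nearly all mitochondrial encoded members. Each member was tested with limma on log2(normalised count + 1) over all genes of the cell type, and called where the Benjamini-Hochberg adjusted p was below 0.05; log2 changes on this scale understate changes of low genes. Of 13 mitochondrial encoded members tested, 11 fell and none rose, with a median log2 change of -0.95. Of all 6159 genes tested, 3.34% rose and 4.55% fell, with a median of -0.07. Across all comparisons given here, the median log2 change of all genes tested lay between -0.12 and 0.18. The members not called were mt-Nd3 (-0.67) and mt-Nd6 (-0.95); mt-Nd6 is the only member coded on the light strand. mt-Nd4, a proton-pumping subunit of complex I, had 1441, 1228, 942 and 1276 normalised reads in KC of DSS, against 1904, 2599, 2528 and 2378 in KC of Sham6w. All 4 DSS libraries lay below all 4 Sham6w libraries, and the log2 change was -0.95 ± 0.17 (SE; adjusted p = 0.0018). mt-Cytb, the cytochrome b of complex III, had 953, 891, 630.4 and 822 in DSS, against 1270.1, 1926, 1804 and 1459.8 in Sham6w, a log2 change of -0.97 ± 0.20 (SE; adjusted p = 0.0062). mt-Co1, which holds the oxygen-reducing centre of complex IV, had 953, 766, 479 and 669 in DSS, against 1105, 1733, 1394 and 1208 in Sham6w, a log2 change of -0.95 ± 0.24 (SE; adjusted p = 0.018). For mt-Cytb and mt-Co1 the groups did not overlap. mt-Atp6, the subunit of the ATP synthase that forms the proton path beside the rotor, had 1425, 1363, 1004 and 1209.5 in DSS, against 1526, 2777, 2273 and 2151 in Sham6w, a log2 change of -0.78 ± 0.23 (SE; adjusted p = 0.043), again with no overlap.

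The called falls in KC of DSS ran from -1.22 for mt-Nd4l to -0.71 for mt-Nd1 on the log2 scale, and mt-Nd2 fell by 1.02, mt-Nd5 by 0.88, mt-Co2 by 0.92, mt-Co3 by 0.78 and mt-Atp8 by 0.97. mt-Nd4l with mt-Nd4 and mt-Atp8 with mt-Atp6 overlap on shared transcripts, so their reads are not independent. The ribosomal RNAs of the same genome, mt-Rnr1 and mt-Rnr2, had log2 changes of -0.89 ± 0.22 and -0.82 ± 0.22 (SE; adjusted p = 0.018 and 0.025), so the 2 rRNAs and the 11 mRNAs were called in the same direction. The number of mitochondrial encoded members called was 3 with Sham6w replicate 2 left out, 4 with DSS replicate 3 left out and 7 with Sham6w replicate 3 or DSS replicate 4 left out. Kupffer cell markers made up 0.55% to 0.722% of reads in KC of DSS and 0.729% to 0.825% in KC of Sham6w, and monocyte markers (8 genes, all above 0) 0.044% to 0.0921% and 0.0182% to 0.031%. Their part in the result was not tested.

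**Figure D2:**
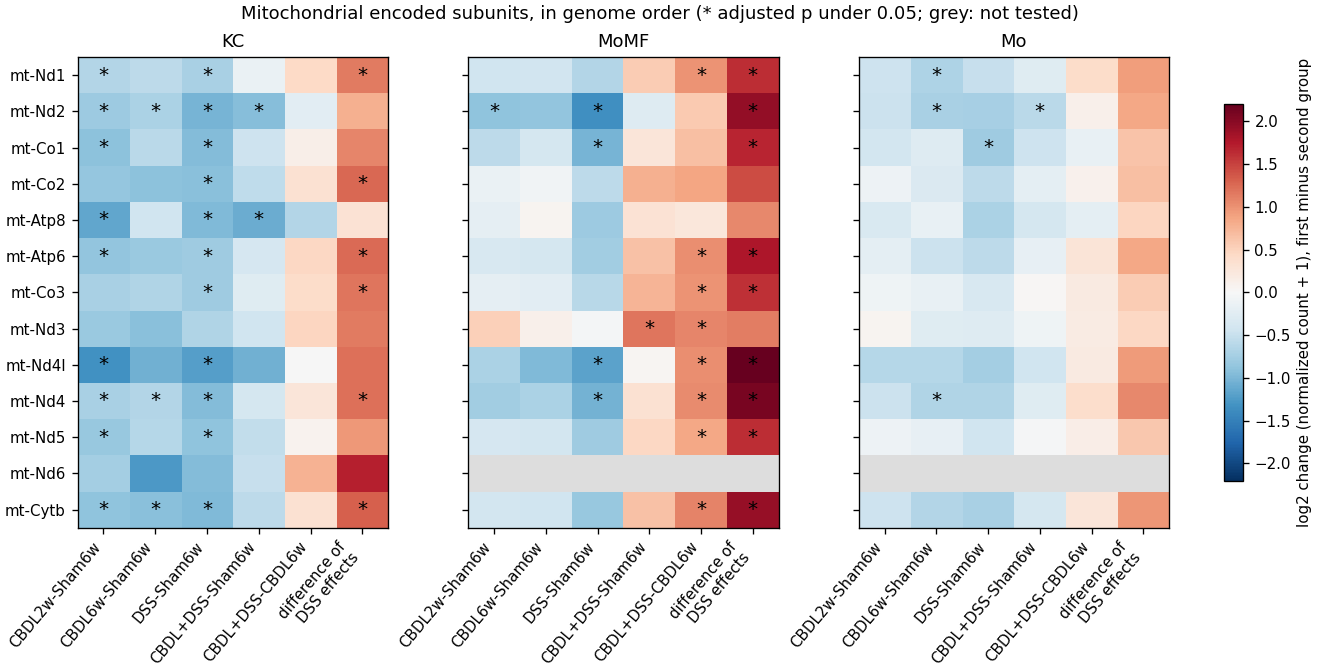
Log2 change of each of the 13 mitochondrial encoded members (rows) in each cell type (columns: the 4 injury groups against Sham6w, CBDL+DSS against CBDL6w, and the difference of the DSS effects with and without ligation); colour gives the log2 change, asterisks mark called members and grey those not tested. Against Sham6w every member lies below 0 in KC in every injury group, and in MoMF the CBDL+DSS column stands above 0 for all but 1 tested member.

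Bile duct ligation alone gave falls in the same direction in KC. In CBDL2w, 9 of 13 mitochondrial encoded members fell (median log2 change -0.83), against 1.62% of all genes falling and 1.09% rising. mt-Nd1, a complex I subunit next to the quinone site, had 1270.3, 1218, 813 and 831 in KC of CBDL2w, against 1370.2, 1851, 1607 and 1548 in KC of Sham6w (log2 change -0.65 ± 0.17 SE, limma adjusted p = 0.037). The groups did not overlap. The count was 0 with Sham6w replicate 2 or CBDL2w replicate 4 left out, 1 with Sham6w replicate 3 or CBDL2w replicate 3 left out and 4 with Sham6w replicate 4 left out. In CBDL6w, 3 fell (mt-Nd2 -0.70, mt-Nd4 -0.65 and mt-Cytb -0.92), with 12 of 13 at an unadjusted p below 0.05 and a median of -0.70. 2.03% of all genes fell and 1.22% rose. The CBDL6w count was 0 with CBDL6w replicate 4 or Sham6w replicates 2 or 3 left out, 1 with CBDL6w replicate 2 or Sham6w replicate 4 left out and 10 with CBDL6w replicate 3 left out. In CBDL+DSS, mt-Nd2 (-0.94) and mt-Atp8 (-1.09) fell, and the median was -0.50, with 1.7% of all genes falling and 1.61% rising. That count was 1 with Sham6w replicates 2 or 3 or CBDL+DSS replicate 4+5 left out. Kupffer cell markers made up 0.331% to 0.464% of reads in CBDL2w, 0.251% to 0.433% in CBDL6w and 0.496% to 0.639% in CBDL+DSS, against 0.729% to 0.825% in Sham6w. Monocyte-derived macrophage markers (8 genes, all above 0) made up 0.139% to 0.166%, 0.134% to 0.236% and 0.0787% to 0.1% in these groups, against 0.0161% to 0.0414%. The part of either list in these changes was not tested. No mitochondrial encoded member rose in KC under any of the 4 injuries with limma; the 4 comparisons share the same 4 Sham6w libraries. No nuclear encoded member was called in KC of CBDL2w, CBDL6w or CBDL+DSS, where 7, 5 and 7 of 75 had an unadjusted p below 0.05 and medians were 0.06, 0.03 and 0.15. DESeq2 called 1, 0 and 0, edgeR 0 in each, and limma 1 in CBDL2w without CBDL2w replicate 4.

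Nuclear encoded members moved the opposite way in KC of DSS: 9 of 75 tested rose and none fell, and 73 had a log2 change above 0 (median 0.45). Of all genes, 3.34% rose. None of the 37 members of complex I and none of the 3 of complex II was called. 1 of 8 in complex III, 4 of 11 in complex IV and 4 of 16 in complex V rose. Atp5g1, 1 of the genes for the c subunit of the ATP synthase rotor, had 66.2, 85.1, 57.6 and 56.6 normalised reads in DSS, against 38.3, 26.7, 30.8 and 26.6 in Sham6w, a log2 change of 1.09 ± 0.24 (SE; adjusted p = 0.0078). Every DSS library was above every Sham6w library. Atp5b, the catalytic beta subunit, had 79.6, 149, 81.4 and 76.4 in DSS, against 24.5, 41.2, 56.6 and 65.6 in Sham6w, a log2 change of 1.06 ± 0.31 (SE; adjusted p = 0.038); DSS replicate 2 was highest. Uqcrq, a small subunit of complex III, had 69.7, 113, 112 and 127 in DSS, against 47.9, 43.7, 45.7 and 77.2 in Sham6w, a log2 change of 0.97 ± 0.28 (SE; adjusted p = 0.04). The Atp5b groups did not overlap, and the lowest DSS library of Uqcrq lay below the highest Sham6w library.

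In complex IV, Cox7a2, the subunit VIIa isoform of most tissues, had 83.1, 87.6, 73.2 and 84.3 in KC of DSS, against 67.1, 44.9, 35.7 and 42.3 in KC of Sham6w, a log2 change of 0.81 ± 0.23 (SE; adjusted p = 0.033). Its groups did not overlap. Cox4i1, the common isoform of subunit IV, had 46.5, 53.8, 74.1 and 56.6 in DSS, against 29.8, 32.7, 49.6 and 26.6 in Sham6w, a log2 change of 0.74 ± 0.23 (SE; adjusted p = 0.048), with overlap of 1 library. The matrix-facing subunit Cox5b (0.92), Cox7b (0.85) and the small ATP synthase subunits Atp5mpl (0.76) and Atp5l (0.53) were the other members that rose. The nuclear count was 1 with Sham6w replicate 2 left out, 2 with DSS replicate 2 left out, 3 with DSS replicate 3 left out, 4 with Sham6w replicate 3 or DSS replicate 4 left out and 5 with Sham6w replicate 4 left out. Cytosolic ribosomal protein genes moved with it: 39 of 91 rose and none fell (median log2 change 0.50), and their summed share was 12.5 ± 0.869% of reads in DSS against 8.35 ± 0.417% in Sham6w (n = 4 each). Their part in the result was not tested. With every library scaled to an equal total outside the mitochondrial genome, the medians in KC of DSS were -0.89 for mitochondrial and 0.50 for nuclear encoded members, with 9 and 11 called.

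**Figure D3:**
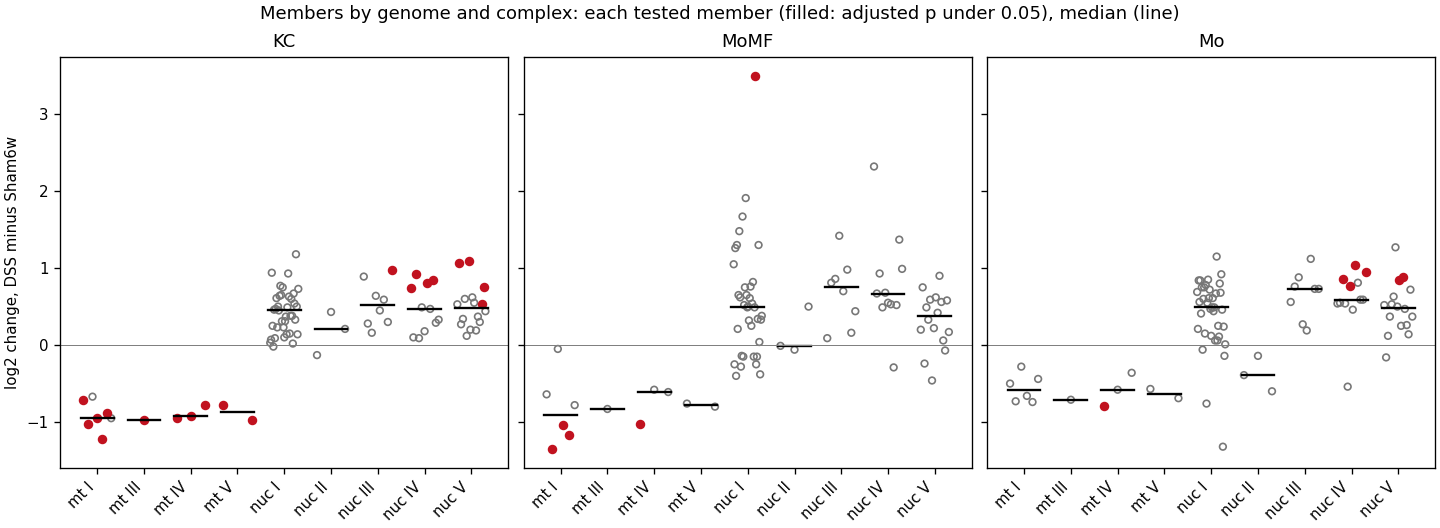
Log2 change of each tested member in DSS against Sham6w, by complex and genome, for KC, MoMF and Mo; each point is 1 gene, filled points are called and lines mark medians. In KC mitochondrial encoded members lie below 0 and nearly all nuclear encoded members above it, in complexes I, III, IV and V.

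In MoMF the fall under DSS covered fewer called members. Of 12 mitochondrial encoded members tested (mt-Nd6 was too low), 4 fell in DSS: mt-Nd2 (-1.35), mt-Nd4l (-1.17), mt-Nd4 (-1.04) and mt-Co1 (-1.02), with a median of -0.79. 0.806% of all 6079 genes fell and 1.27% rose. mt-Nd2, a membrane subunit of complex I, had 539, 467, 414 and 382 in MoMF of DSS, against 1176, 1081 and 1176 in MoMF of Sham6w, a log2 change of -1.35 ± 0.22 (SE; adjusted p = 0.002). mt-Nd4 had 816, 764, 639 and 765 in DSS, against 1362, 1626 and 1607 in Sham6w, a log2 change of -1.04 ± 0.24 (SE; adjusted p = 0.026). Neither gene overlapped between the groups. The count was 1 with Sham6w replicate 4+6 or DSS replicates 2 or 3 left out, 2 with DSS replicate 5+6 left out and 7 with Sham6w replicate 1+2+5 left out; the last leaves the shallow library out. mt-Rnr1 and mt-Rnr2 fell as well, with log2 changes of -1.31 ± 0.27 and -1.18 ± 0.26 (SE; limma adjusted p = 0.017 and 0.023). Endothelial markers (12 genes, all above 0) made up 0.177% to 0.185% of reads in MoMF of DSS and 0.043% to 0.066% in MoMF of Sham6w. Kupffer cell markers made up 0.0345% to 0.0593% in MoMF of DSS, against 0.0767% to 0.281% in MoMF of Sham6w, and monocyte markers 0.156% to 0.205%, against 0.0721% to 0.112%, both with no overlap. The part of these markers in the changes was not tested.

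In the ligated groups MoMF showed 1 call or none: mt-Nd2 fell in CBDL2w (-0.89 ± 0.22 SE, limma adjusted p = 0.023), though not as a call without the shallow library (-0.87), and no mitochondrial encoded member was called in CBDL6w, where 3 of 12 had an unadjusted p below 0.05 (DESeq2 called 2 and edgeR none). Medians were -0.39 in CBDL2w and -0.39 in CBDL6w, and -0.72 and -0.69 without MoMF Sham6w replicate 1+2+5. Without that library 1 mitochondrial encoded member, other than mt-Nd2, was called lower in CBDL2w. Of all genes 1.69% rose and 1.37% fell in CBDL2w, and 0.411% rose and 0.806% fell in CBDL6w. The count was 0 with Sham6w replicate 4+6 or CBDL2w replicates 3 or 4 left out in CBDL2w, and 1 with CBDL6w replicate 2 or Sham6w replicate 3 left out and 2 with Sham6w replicate 1+2+5 left out in CBDL6w. In CBDL+DSS, 11 of 12 had a log2 change above 0 (median 0.51, and 0.26 without that library), and 1 was called: mt-Nd3, a small complex I subunit, rose. mt-Nd3 had 506, 467, 390.4 and 424 in CBDL+DSS, against 109, 380.2 and 182 in Sham6w, a log2 change of 1.18 ± 0.33 (SE; adjusted p = 0.026). Without MoMF Sham6w replicate 1+2+5 it was 0.76 ± 0.32 (adjusted p = 0.18). With the replicate number as a block, where MoMF of Sham6w rested on replicate 3 alone, it was -0.08. The mitochondrial count was 0 with Sham6w replicate 1+2+5 or CBDL+DSS replicates 1 or 2 left out and 4 with Sham6w replicate 3 left out. Of all genes 4.61% rose and 5.2% fell in MoMF of CBDL+DSS. Kupffer cell markers made up 0.0269% to 0.0636% of reads in MoMF of CBDL2w, against 0.0767% to 0.281% in MoMF of Sham6w. Monocyte markers made up 0.198% to 0.249% in CBDL2w, 0.178% to 0.319% in CBDL6w and 0.124% to 0.154% in CBDL+DSS, against 0.0721% to 0.112% in Sham6w. Markers of T, B and NK cells made up 0.0017% to 0.0057% in CBDL2w, 0.0043% to 0.0105% in CBDL6w and 0.0012% to 0.0021% in CBDL+DSS, against 0.011% to 0.0367% in Sham6w. None of these ranges overlapped with that of Sham6w. Monocyte-derived macrophage markers made up 0.226% to 0.277% in CBDL2w and 0.249% to 0.273% in CBDL+DSS, above the 0.0837% to 0.215% of Sham6w. In CBDL6w they made up 0.195% to 0.304%, which overlapped with Sham6w. The part of the markers in the changes was not tested.

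Nuclear encoded members called in MoMF against Sham6w were few, and most were lost without the shallow Sham6w library. Ndufs3, a core subunit of the matrix arm of complex I, had 8.58, 12.1, 12.8 and 17.1 normalised reads in CBDL6w, 30, 20, 11.3 and 7.76 in DSS and 12.9, 12.4, 0 and 16 in CBDL+DSS, against 0, 0 and 1.96 in Sham6w. It rose in CBDL6w (3.21 ± 0.75 SE, limma adjusted p = 0.032), DSS (3.50 ± 0.75 SE, limma adjusted p = 0.02) and CBDL+DSS (2.38 ± 0.75 SE, limma adjusted p = 0.048), on the log2 scale. These fitted values depend on the pseudocount, since Sham6w was at or near 0. Without that library the log2 changes were 2.95, 3.24 and 2.12, with adjusted p = 0.095, 0.045 and 0.15. Cox4i1 had 53.5, 42.5, 49 and 23.9 in CBDL2w and 68, 33.7, 34.7 and 46.5 in CBDL+DSS, against 0, 25 and 15.7 in Sham6w, and rose in CBDL2w (2.45 ± 0.68 SE, limma adjusted p = 0.048) and CBDL+DSS (2.57 ± 0.68 SE, limma adjusted p = 0.018). The other 2 Sham6w libraries lay within or below the injured range. Without the library at 0 the changes were 0.99 and 1.11, neither called (adjusted p = 0.22 and 0.095). Sdhc, a membrane anchor of complex II, rose in CBDL+DSS by 1.61 ± 0.45 (SE; adjusted p = 0.026), and Atp5b by 0.84 ± 0.27 (SE; adjusted p = 0.048). Without the library the values were 1.23 and 0.65, with adjusted p = 0.14 and 0.20. The nuclear counts, of 74 members tested, were 1 in CBDL2w, 1 in CBDL6w, 1 in DSS and 4 in CBDL+DSS, all of them rises, beside 1.69%, 0.411%, 1.27% and 4.61% of all genes that rose. In CBDL2w, DSS and CBDL+DSS the members' share was near that of all genes, and in CBDL6w it was 1 member. The CBDL2w count was 0 with Sham6w replicate 1+2+5 or CBDL2w replicates 1, 2, 3 or 4 left out, 4 with Sham6w replicate 4+6 left out and 5 with Sham6w replicate 3 left out. That of CBDL6w was 0 with CBDL6w replicates 1, 3 or 4 or Sham6w replicate 1+2+5 left out and 2 with Sham6w replicates 3 or 4+6 left out. The DSS count was 0 with DSS replicate 2 left out, 6 with Sham6w replicate 3 left out and 8 with Sham6w replicate 4+6 left out. That of CBDL+DSS was 0 with Sham6w replicate 1+2+5 left out, 1 with CBDL+DSS replicates 1, 2 or 4+5 left out, 9 with Sham6w replicate 4+6 left out and 10 with Sham6w replicate 3 left out. Medians of the 74 were 0.35, 0.26, 0.51 and 0.22 in the same order, and 0.14, 0.09, 0.26 and 0 without that library.

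In Mo, 76 nuclear and 12 mitochondrial encoded members were tested, and some nuclear encoded members rose under each injury. In CBDL2w, 15 of 76 nuclear encoded members rose and 1 fell (median log2 change 0.40), beside 8.05% of all 6112 genes that rose and 5.71% that fell. In CBDL6w 8 rose, beside 5.87% of all genes (5.33% fell). In DSS 6 rose, beside 1.05% (0.54% fell). In CBDL+DSS 5 rose and 1 fell, beside 7% and 6.07%, a share near that of all genes. Of the 12 complex IV members tested, 6 rose and 1 fell in CBDL2w, 5 rose in CBDL6w, 4 rose in DSS, and 2 rose and 1 fell in CBDL+DSS. Of the 37 of complex I, 4 rose in CBDL2w, none in CBDL6w or DSS and 1 in CBDL+DSS. Uqcrh, the hinge protein that holds cytochrome c1 in complex III, had 143, 128, 204 and 218 in CBDL2w and 154, 151, 179 and 164 in CBDL6w, against 86.6, 73.6 and 72.7 in Sham6w. It rose by 1.12 ± 0.19 (SE; adjusted p = 0.00038) in CBDL2w and 1.05 ± 0.19 (SE; adjusted p = 0.00097) in CBDL6w on the log2 scale, with no overlap. In CBDL+DSS it had 97.7, 136, 117 and 118, also above all 3 Sham6w libraries, and rose by 0.58 ± 0.19 (SE; adjusted p = 0.048). Cox7a2 had 49.2, 62.2, 62.5 and 79.9 in CBDL2w and 61.7, 62.2, 74.9 and 57 in DSS, against 38, 19.3 and 38 in Sham6w, again with no overlap. It rose in all 4 injury groups, by 1.02, 0.99, 1.04 and 0.93 in CBDL2w, CBDL6w, DSS and CBDL+DSS (limma adjusted p = 0.0049, 0.0077, 0.032 and 0.013).

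Among the other monocyte changes of CBDL2w were the complex I subunits Ndufa3 (1.24 ± 0.31 SE, limma adjusted p = 0.0078), Ndufc2 (1.14), Ndufa7 (0.73) and Ndufa6 (0.73), the Rieske iron-sulfur protein Uqcrfs1 of complex III (1.00), and the complex IV subunit Cox8a (0.79). Ndufa6 had 272, 380.3, 373 and 385 in CBDL2w, against 171, 246 and 220.4 in Sham6w. Cox7a2l, which joins complexes III and IV in supercomplexes and is no subunit, rose in CBDL6w (0.90 ± 0.27 SE, limma adjusted p = 0.035) and CBDL+DSS (1.10 ± 0.27 SE, limma adjusted p = 0.011). It had 74.9, 79.2, 49.7 and 53 in CBDL6w and 79.8, 70.6, 74.9 and 65.1 in CBDL+DSS, against 23.6, 29 and 53.7 in Sham6w. The nuclear counts in Mo moved when single libraries were left out. The CBDL2w count of 16 was 5 with Sham6w replicate 1+2+5 left out, 9 with Sham6w replicate 3+6 left out and 10 with CBDL2w replicates 3 or 4 left out. The CBDL6w count of 8 was 3 with Sham6w replicate 3+6 left out, 4 with CBDL6w replicate 2 left out and 5 with CBDL6w replicate 1 or Sham6w replicate 1+2+5 left out. The DSS count of 6 was 0 with Sham6w replicate 3+6 or DSS replicates 3 or 4 left out and 1 with Sham6w replicate 1+2+5 left out. The CBDL+DSS count of 6 was 2 with Sham6w replicate 3+6 left out and 3 with Sham6w replicates 1+2+5 or 4 or CBDL+DSS replicate 2 left out. Ribosomal protein genes moved with them: of 89 tested, 63 rose in CBDL2w, 53 in CBDL6w, 9 in DSS and 52 in CBDL+DSS, where 1 fell. Endothelial markers were high in Mo of Sham6w (0.269% to 0.473% of reads) and of DSS (0.194% to 0.38%) and at most 0.0773% in the other Mo groups, and monocyte markers were lower in Mo of Sham6w (0.27% to 0.365%) than in each injured Mo group (0.441% to 0.618%). Neutrophil markers made up 0.214% and 0.183% of reads in Mo Sham6w replicates 3+6 and 4 and 0.0236% in replicate 1+2+5. They were at most 0.0953% in the injured Mo groups. The part of these genes and markers in the monocyte changes was not tested.

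Mitochondrial encoded members in Mo fell in 3 calls in CBDL6w (mt-Nd1 -0.68, mt-Nd2 -0.72 and mt-Nd4 -0.66), 1 in DSS (mt-Co1 -0.79) and 1 in CBDL+DSS (mt-Nd2 -0.60), of 12 tested. Of all genes 5.33% fell in CBDL6w, 0.54% in DSS and 6.07% in CBDL+DSS, and the last is near the members' share. In CBDL2w no member of 12 was called, with 5 at an unadjusted p below 0.05, and neither edgeR nor DESeq2 called one; 4 were called without CBDL2w replicate 1. Medians were -0.36, -0.39, -0.62 and -0.27 in CBDL2w, CBDL6w, DSS and CBDL+DSS. mt-Co1 had 499, 464, 468 and 422 in Mo of DSS, against 1109.9, 675 and 682 in Mo of Sham6w, and its groups did not overlap. The count was 0 with CBDL6w replicate 2 or Sham6w replicate 1+2+5 left out and 1 with CBDL6w replicate 1 left out in CBDL6w, 0 with Sham6w replicates 1+2+5 or 3+6 or DSS replicates 2, 3 or 4 left out and 2 with Sham6w replicate 4 left out in DSS, and 0 with Sham6w replicates 1+2+5 or 3+6 or CBDL+DSS replicates 2, 4+5 or 6 left out in CBDL+DSS. edgeR called no mitochondrial encoded member in Mo of DSS or CBDL+DSS, and DESeq2 called 4 in DSS.

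Members with a tissue-restricted isoform averaged few reads. Cox7a1, the muscle isoform of subunit VIIa, reached 3.97 normalised reads at most; Ndufa4l2, a paralogue of Ndufa4 known to be induced by hypoxia, was above 0 in 1 library (1.23); and Cox6b2, the testis isoform, reached 22.1. Cox6a2, the heart and muscle isoform of subunit VIa, had 2.68, 5, 7.32 and 8.93 in KC of DSS, against 0, 0, 0.993 and 0 in KC of Sham6w. In Mo it was at 0 in all 4 libraries of CBDL+DSS and had 0.82, 2.7, 0 and 1.27 in CBDL2w, against 3.94, 14.5 and 11.2 in Sham6w, and it fell in both (limma adjusted p = 0.006 and 0.044). The difference of the CBDL+DSS effect between KC and Mo was called (3.35 ± 0.74 SE, limma adjusted p = 0.011), as was that of the DSS effect between KC and MoMF (3.40 ± 0.74 SE, limma adjusted p = 0.011). These fitted values come from a few reads per library and depend on the pseudocount. Cox6a2 passed the low-value filter within Mo and not within KC or MoMF. The call between KC and MoMF thus concerns a gene too low to be tested within either. In Mo its Sham6w values of 14.5 and 11.2 helped it pass the filter, so its falls there rest partly on the values that let it be tested. Complex II, the only complex with no mitochondrial encoded subunit, had 3 of 4 members above the low-value filter (Sdha, Sdhb and Sdhc). None was called in KC or Mo against Sham6w, and Sdhc was the 1 called in MoMF. Sdhd, the other membrane anchor, averaged 5.20 normalised reads, did not pass the filter within any cell type and was tested only in the fit over all libraries.

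Ligation at 2 and at 6 weeks was compared member by member: CBDL2w against CBDL6w gave no called member in KC, MoMF or Mo, with 1, 0 and 0 mitochondrial and 7, 2 and 4 nuclear encoded members at an unadjusted p below 0.05. No member was called by edgeR or DESeq2 either. Across all genes 0% were called in KC, 0.0823% in MoMF and 0% in Mo. Colitis added to ligation was set against ligation alone as CBDL+DSS against CBDL6w. In MoMF 8 of 12 mitochondrial encoded members rose, with a median log2 change of 0.99, beside 2.09% of all genes that rose and 2.07% that fell. None of 74 nuclear encoded members was called, with 3 at an unadjusted p below 0.05 (median 0.08; edgeR called none and DESeq2 1). mt-Nd4 had 1547, 2043, 2398 and 1840.1 in CBDL+DSS, against 908, 1443, 784 and 759 in CBDL6w, a log2 change of 1.04 ± 0.22 (SE; adjusted p = 0.0085). Every CBDL+DSS library was above every CBDL6w library. mt-Cytb had 920.0, 1045, 1304 and 1001 in CBDL+DSS, against 439.5, 831, 394 and 421 in CBDL6w, a log2 change of 1.09 ± 0.26 (SE; adjusted p = 0.017). mt-Co3, a core subunit of complex IV, had 1126, 1239, 1244 and 1101 in CBDL+DSS, against 546, 867, 475 and 545 in CBDL6w, a log2 change of 0.99 ± 0.23 (SE; adjusted p = 0.014). mt-Nd1 (0.98), mt-Nd3 (1.07), mt-Nd4l (1.02), mt-Nd5 (0.85) and mt-Atp6 (1.02) were the others. The count was 4 with CBDL6w replicates 3 or 4 left out and 5 with CBDL6w replicate 1 or CBDL+DSS replicates 2 or 3 left out. Monocyte markers made up 0.124% to 0.154% of reads in MoMF of CBDL+DSS, against 0.178% to 0.319% in MoMF of CBDL6w. Hepatocyte markers made up 0.0379% to 0.0575%, against 0.0139% to 0.0317%, endothelial markers 0.0484% to 0.0868%, against 0.035% to 0.0443%, and red cell markers 0.0158% to 0.0509%, against 0.0007% to 0.0114%, all higher in CBDL+DSS than in CBDL6w with no overlap. Markers of T, B and NK cells were lower, with 0.0012% to 0.0021% in CBDL+DSS, against 0.0043% to 0.0105% in CBDL6w. The part of these markers in the result was not tested. In KC and Mo no member was called in CBDL+DSS against CBDL6w (2 mitochondrial and 6 nuclear encoded at an unadjusted p below 0.05 in each; edgeR called none, and DESeq2 1 nuclear encoded member in KC), with mitochondrial medians of 0.34 and 0.18. Of all genes 0.942% rose and 0.796% fell in KC, and 0.295% and 0.278% in Mo.

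Whether colitis moved the members differently in ligated and in unligated livers was tested as an interaction, the change of CBDL+DSS over CBDL6w minus that of DSS over Sham6w. In MoMF 9 of 12 mitochondrial encoded members had a higher effect in ligated livers, with a median difference of 1.66, beside 1.2% of all genes higher and 0.888% lower. mt-Nd4 had the interaction 2.08 ± 0.33 (SE; adjusted p = 0.0015), mt-Cytb 1.92 ± 0.38 (SE; adjusted p = 0.0097) and mt-Atp6 1.78 ± 0.35 (SE; adjusted p = 0.0085). In KC 6 of 13 were called higher (median 1.18), beside 3.75% of all genes higher and 2.27% lower. They were mt-Nd1, mt-Nd4, mt-Cytb, mt-Co2, mt-Co3 and mt-Atp6, with 1.14 to 1.31. The KC count was 3 with CBDL6w replicate 4, Sham6w replicates 2, 3 or 4, DSS replicate 3 or CBDL+DSS replicate 6 left out. The MoMF count stayed between 9 and 11 whichever library was left out. In Mo no mitochondrial encoded member was called (median 0.76, 9 of 12 at an unadjusted p below 0.05; edgeR called none and DESeq2 2), beside 0.115% of all genes higher and 0.196% lower. Among nuclear encoded members the interaction was called once in each cell type, and each was negative. In KC it was Atp5g1 (-1.83 ± 0.33 SE, limma adjusted p = 0.0025), with 23, 34.9, 21 and 35.8 in CBDL+DSS against 55.5, 50.2, 44.1 and 40.5 in CBDL6w, the opposite order to DSS against Sham6w. In MoMF it was Ndufs3 (-4.33 ± 1.03 SE, limma adjusted p = 0.028), and in Mo Uqcrh (-1.20 ± 0.26 SE, limma adjusted p = 0.049). The nuclear count was 2 with CBDL6w replicates 1 or 3 left out and 4 with Sham6w replicate 4 left out in KC, and 0 with CBDL6w replicates 3 or 4, Sham6w replicate 3 or DSS replicates 1 or 2 left out and 2 with CBDL6w replicate 2 or Sham6w replicate 4+6 left out in MoMF. In Mo it was 0 with CBDL6w replicates 1, 2, 3 or 4, Sham6w replicates 1+2+5, 3+6 or 4, DSS replicates 1, 3 or 4 or CBDL+DSS replicates 1, 4+5 or 6 left out.

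**Figure D4:**
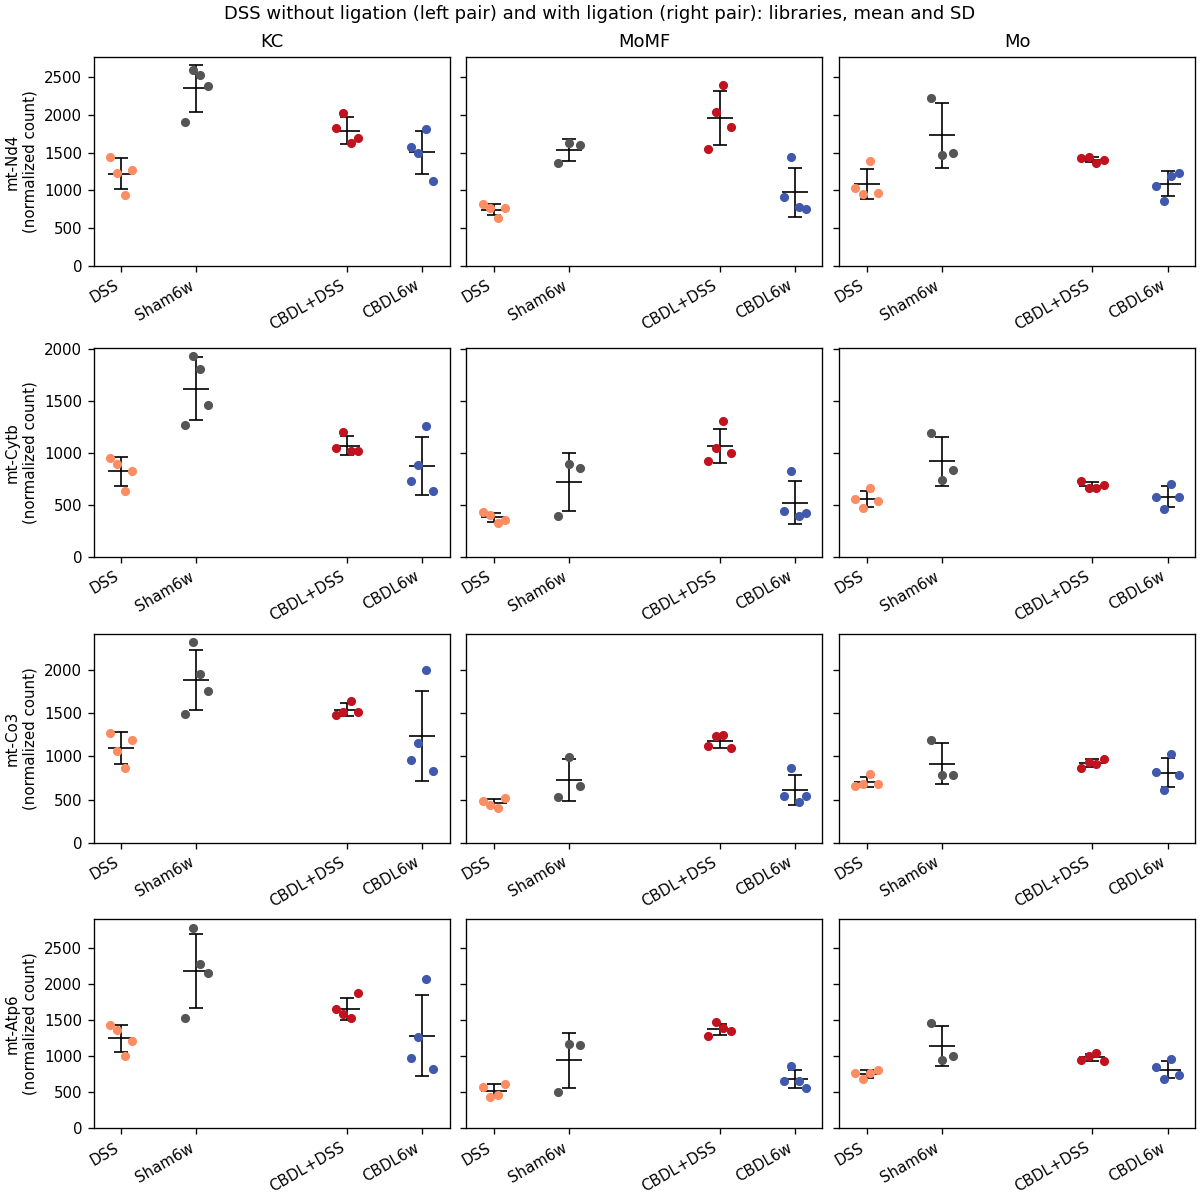
Normalised reads of mt-Nd4, mt-Cytb, mt-Co3 and mt-Atp6 in DSS and Sham6w (unligated) and in CBDL+DSS and CBDL6w (ligated), for KC, MoMF and Mo; each point is 1 library, with the group mean and SD as bars. For mt-Nd4 in MoMF the DSS libraries lie below the Sham6w libraries, and the CBDL+DSS libraries lie above the CBDL6w libraries.

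Between cell types of control livers, KC had higher normalised counts of most mitochondrial encoded members than MoMF or Mo. In Sham6w 12 of 13 members were higher in KC than in MoMF (median log2 difference 1.22). The 13 tested include mt-Nd6, which passed the low-value filter within KC and not within MoMF or Mo. Of all 7555 genes 9.11% were higher and 6.83% lower. Without MoMF Sham6w replicate 1+2+5 the count of members was 8 and the median 0.86. Against Mo 10 were higher in KC (median 0.82), beside 7.48% higher and 8.54% lower. mt-Co3 had 1493, 2327, 1955 and 1764 in KC, against 525, 993 and 658 in MoMF and 1193, 781 and 779.8 in Mo, a log2 difference of 1.41 ± 0.24 (SE; adjusted p = 2.2e-05) from MoMF and 1.05 ± 0.24 (SE; adjusted p = 0.00092) from Mo. mt-Nd3 had 611, 832, 822 and 679 in KC, against 109, 380.2 and 182 in MoMF and 394, 301 and 273 in Mo, with differences of 1.89 and 1.19. For mt-Co3 KC did not overlap with either. The KC to Mo count was 3 with Mo Sham6w replicate 3+6 left out, 4 with Mo Sham6w replicate 4 left out and 5 with KC Sham6w replicate 2 left out. Between MoMF and Mo no mitochondrial encoded member was called (median -0.36, and -0.04 without MoMF Sham6w replicate 1+2+5; 1 of 13 at an unadjusted p below 0.05; edgeR and DESeq2 called none, and limma 1 without MoMF Sham6w replicate 3), beside 1.95% of all genes higher in MoMF and 4.21% lower.

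Among nuclear encoded members of control livers, Cox5a, a matrix-facing subunit of complex IV, was higher in KC than in both MoMF and Mo in Sham6w and in each of the 4 injured groups. It had 187, 154, 166 and 144 in KC, against 24.8, 95.6 and 96.2 in MoMF and 48.5, 50.7 and 57.1 in Mo. The lowest KC library was above the highest of the others, with log2 differences of 1.39 ± 0.27 (SE; adjusted p = 0.00021) from MoMF, or 0.75 (adjusted p = 0.044) without MoMF Sham6w replicate 1+2+5, and 1.62 ± 0.27 (SE; adjusted p = 9.1e-06) from Mo. In the injured groups the difference of Cox5a from Mo was 0.92 in CBDL2w, 1.20 in CBDL6w, 1.17 in DSS and 1.48 in CBDL+DSS, and that from MoMF 1.09, 0.80, 0.82 and 1.33, each called. In Sham6w 11 of 80 nuclear encoded members were higher and 3 lower in KC than in MoMF, 3 and 2 in KC than in Mo, and 0 and 3 in MoMF than in Mo. Of all genes 9.11% were higher and 6.83% lower in KC than in MoMF, 7.48% and 8.54% in KC than in Mo, and 1.95% and 4.21% in MoMF than in Mo. The members' shares were at or below these for KC against Mo and for MoMF against Mo. The count of 14 between KC and MoMF was 3 with MoMF Sham6w replicate 1+2+5 left out, 8 with KC Sham6w replicate 1 left out and 9 with KC Sham6w replicates 2 or 3 left out: Ndufs3 (3.07), Cox4i1 (2.20), Ndufa4 (2.05) and Cox7c (1.38) were among those at 0 or low in that library. Without it, the difference of Cox4i1 was 0.74, that of Ndufa4 0.56, and that of Cox7c 0.49, none of them called, and that of Ndufs3 was 2.81 and still called. The KC to Mo count was 2 with Mo Sham6w replicate 1+2+5 left out and 3 with Mo Sham6w replicate 3+6 or KC Sham6w replicate 4 left out. The MoMF to Mo count, which was Ndufs3, Ndufa4 and Cox4i1, was 5 with MoMF Sham6w replicate 4+6 left out and 6 with MoMF Sham6w replicate 3 left out. Without MoMF Sham6w replicate 1+2+5, Ndufs3 was still lower in MoMF than in Mo (-3.11; limma adjusted p = 0.01), Cox5a was higher (0.87; 0.037), and Ndufa4 (-0.83; 0.32) and Cox4i1 (-0.80; 0.27) were not called. Atp5l was lower in KC than in MoMF (-0.72 ± 0.22 SE, limma adjusted p = 0.015) and than in Mo (-0.70 ± 0.22 SE, limma adjusted p = 0.018). Without that library the difference from MoMF was -0.45 and not called. It had 129, 123, 142 and 135 in KC, against 319, 163 and 199 in MoMF and 236, 245 and 171 in Mo. Genes induced by tissue dissociation made up 0.579 ± 0.0898% of reads in KC of Sham6w (n = 4), against 1.25 ± 0.163% in MoMF and 1.43 ± 0.121% in Mo (n = 3 each). Their part in these differences was not tested.

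**Figure D5:**
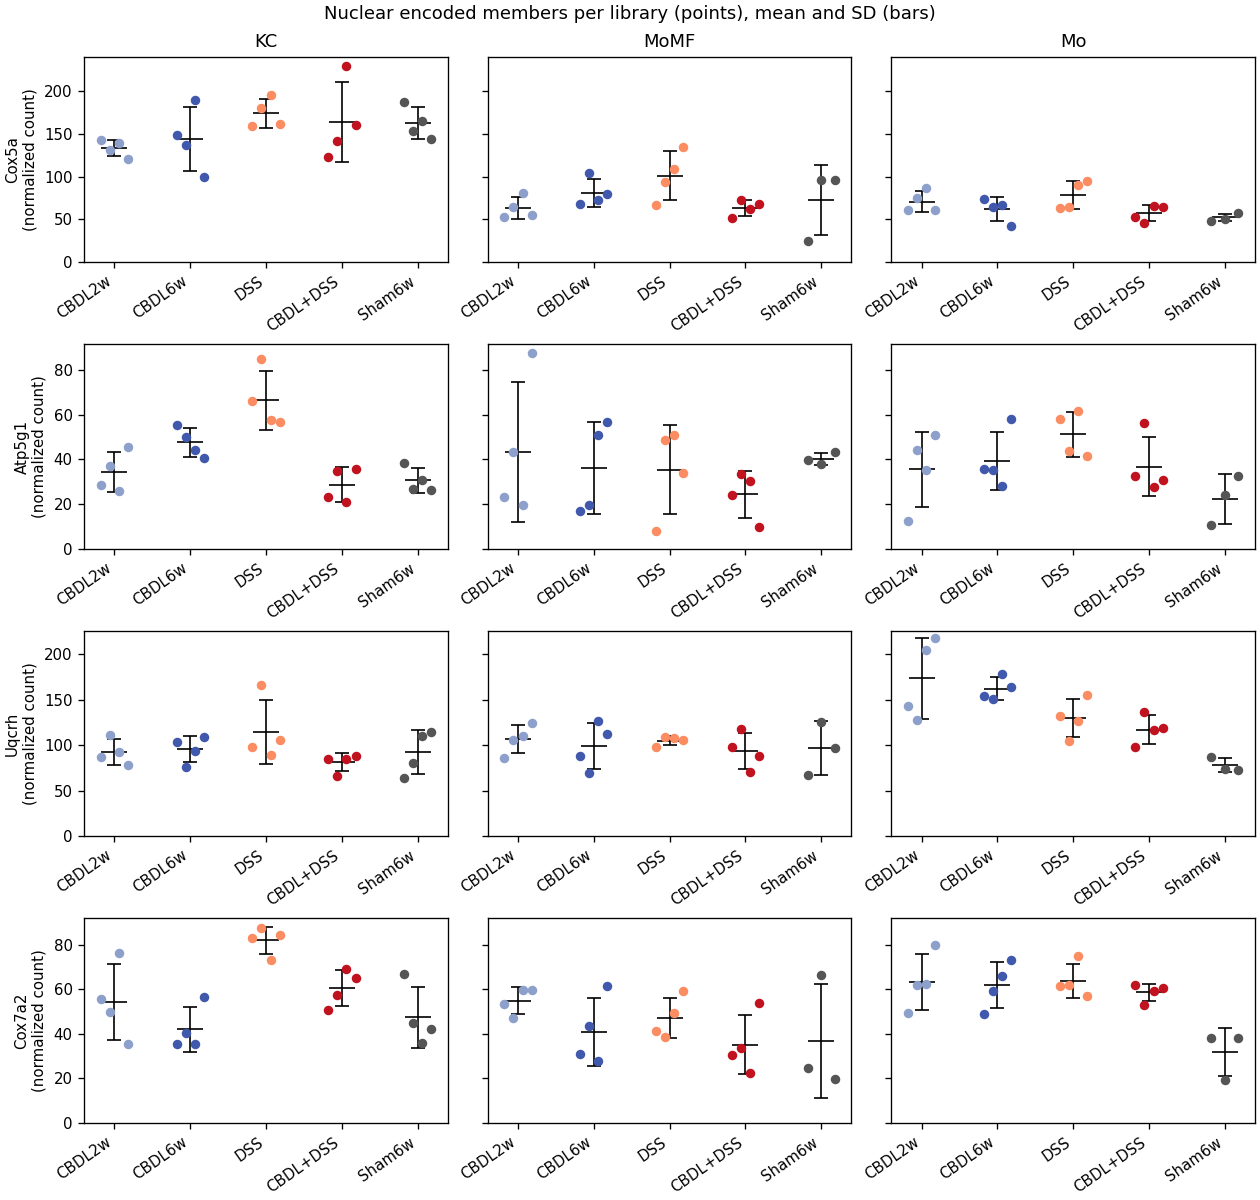
Normalised reads of Cox5a, Atp5g1, Uqcrh and Cox7a2 by cell type and injury group; each point is 1 library, with the group mean and SD as bars. Cox5a is highest in KC, Atp5g1 rises in KC of DSS over KC of Sham6w, and Uqcrh and Cox7a2 rise over Sham6w in Mo of ligated livers.

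Cell types in the injured livers are compared by counts of members called in either direction, mitochondrial and nuclear encoded together, of 93 tested. Such counts give no order of the cell types. Between KC and Mo the members' share was below that of all genes in each injured group. Between KC and MoMF it was near it in CBDL2w, above it in CBDL6w and DSS, and below it in CBDL+DSS. Between MoMF and Mo it was near or below it. In CBDL2w 7 members were called between KC and MoMF (6 of them mitochondrial encoded, all higher in KC), 5 between KC and Mo (none mitochondrial encoded) and 0 between MoMF and Mo, beside 6.63%, 14.4% and 2.01% of all genes. The KC to MoMF count of CBDL2w was 1 with KC CBDL2w replicate 1 left out, 2 with MoMF CBDL2w replicate 4 left out and 3 with KC CBDL2w replicate 2 or MoMF CBDL2w replicate 3 left out. The KC to Mo count of CBDL2w was 3 with KC CBDL2w replicate 1 left out. The MoMF to Mo count of CBDL2w was 1 with Mo CBDL2w replicates 1 or 2 or MoMF CBDL2w replicate 3 left out. In CBDL6w 14 members were called between KC and MoMF (10 of them mitochondrial encoded, all higher in KC), 7 between KC and Mo (1 mitochondrial encoded) and 3 between MoMF and Mo, beside 9.66%, 15.3% and 2.16% of all genes. The KC to MoMF count of CBDL6w was 5 with KC CBDL6w replicate 3 left out, 7 with MoMF CBDL6w replicates 3 or 4 left out and 8 with MoMF CBDL6w replicate 1 left out. The MoMF to Mo count of CBDL6w was 0 with MoMF CBDL6w replicate 1 or Mo CBDL6w replicate 4 left out and 1 with MoMF CBDL6w replicate 2 or Mo CBDL6w replicate 3 left out. In DSS 21 members were called between KC and MoMF (13 of them mitochondrial encoded, all higher in KC), 8 between KC and Mo (3 mitochondrial encoded) and 1 between MoMF and Mo, beside 13.5%, 14.7% and 2.32% of all genes. The 13 include mt-Nd6, which passed the low-value filter within KC and not within MoMF or Mo. Its call as higher in KC thus follows in part from the filter. The KC to Mo count of DSS was 2 with Mo DSS replicate 2 left out, 3 with KC DSS replicate 2 left out and 4 with Mo DSS replicate 1 or KC DSS replicate 4 left out. The MoMF to Mo count of DSS was 0 with MoMF DSS replicates 1 or 5+6 or Mo DSS replicates 1 or 3 left out. In CBDL+DSS 2 members were called between KC and MoMF (none mitochondrial encoded), 9 between KC and Mo (4 mitochondrial encoded) and 3 between MoMF and Mo, beside 4.88%, 14.4% and 4.29% of all genes. The KC to MoMF count of CBDL+DSS was 1 with MoMF CBDL+DSS replicate 1 or KC CBDL+DSS replicate 2 left out. The MoMF to Mo count of CBDL+DSS was 0 with MoMF CBDL+DSS replicate 2 or Mo CBDL+DSS replicate 4+5 left out and 1 with Mo CBDL+DSS replicates 1 or 6 or MoMF CBDL+DSS replicate 3 left out. In the 0 calls between MoMF and Mo in CBDL2w, 5 mitochondrial and 9 nuclear encoded members had an unadjusted p below 0.05, and edgeR called none and DESeq2 2. For mt-Co3, KC of DSS had 1277, 1059, 863 and 1192, against 481, 438, 405 and 514 in MoMF of DSS (log2 difference 1.24 ± 0.22 SE, limma adjusted p = 4.1e-05). KC of CBDL+DSS had 1483, 1520.5, 1648 and 1517, against 1126, 1239, 1244 and 1101 in MoMF of CBDL+DSS (0.39 ± 0.22 SE, limma adjusted p = 0.42). Neither pair overlapped, and the second was not called.

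Effects of injury were compared between cell types as differences of the change against Sham6w. For CBDL+DSS the mitochondrial encoded effect was lower in KC than in MoMF for mt-Nd3 (-1.61 ± 0.41 SE, limma adjusted p = 0.023) and mt-Cytb (-1.23 ± 0.35 SE, limma adjusted p = 0.045), with a median of -1.02 over 13 members, 12 of them at an unadjusted p below 0.05, beside 1.99% of all genes called. That count of 2 was 0 with MoMF Sham6w replicate 1+2+5 or KC CBDL+DSS replicate 4+5 left out, 1 with KC Sham6w replicates 2 or 3, KC CBDL+DSS replicates 1+3, 2 or 6 or MoMF CBDL+DSS replicates 2 or 4+5 left out, 4 with MoMF Sham6w replicate 4+6 left out and 8 with MoMF Sham6w replicate 3 left out. KC and Mo differed in 1 member (Cox6a2), beside 0.821%, and MoMF and Mo in 3, beside 2.12%: Sdhc (2.37), Cox7a2l (-1.24) and Ndufa6 (-1.08). Of 93 members tested, these are shares near those of all genes. The counts were 0 with Mo Sham6w replicates 3+6 or 4 left out, and 1 with Mo Sham6w replicate 1+2+5 or Mo CBDL+DSS replicate 4+5 left out and 6 with MoMF Sham6w replicate 3 left out, in that order. Without MoMF Sham6w replicate 1+2+5, Sdhc was at 1.98 ± 0.60 (SE; limma adjusted p = 0.072), mt-Nd3 at -1.19 and mt-Cytb at -0.85, none of them called, and Cox7a2l (-1.41) and Ndufa6 (-1.11) were still called. For DSS the falls of mitochondrial encoded members were not shown to differ between cell types: no such member was called for any pair, with 0, 0 and 1 of 13 at an unadjusted p below 0.05, and over all members edgeR called none for any pair and DESeq2 1, between MoMF and Mo. The call for DSS was Cox6a2 between KC and MoMF, beside 0.86%, 0.238% and 0.0397% of all genes for KC minus MoMF, KC minus Mo and MoMF minus Mo. For KC minus MoMF this share of the 93 members was near that of all genes. The KC to MoMF count was 0 with MoMF DSS replicate 5+6 left out and 2 with MoMF Sham6w replicates 3 or 4+6 left out, and the KC to Mo count 1 with Mo Sham6w replicate 1+2+5, KC Sham6w replicate 3 or KC DSS replicate 1 left out.

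For CBDL2w the effect on Uqcrh was lower in KC than in Mo (-1.09 ± 0.30 SE, limma adjusted p = 0.043) and that on Ndufa6 lower in MoMF than in Mo (-1.08 ± 0.28 SE, limma adjusted p = 0.035), beside 0.344%, 1.67% and 1.38% of all genes for KC minus MoMF, KC minus Mo and MoMF minus Mo. Of 93 members tested, 1 was called in each of the last 2 pairs, a share below that of all genes. Uqcrh had 87.1, 112, 92.8 and 78 in KC of CBDL2w against 63.9, 80, 110.2 and 115 in KC of Sham6w, where it was not called. The CBDL2w count of 0 for KC minus MoMF was 1 with MoMF Sham6w replicate 4+6 left out and 4 with MoMF Sham6w replicate 3 left out. The CBDL2w count of 1 for KC minus Mo was 0 with Mo Sham6w replicates 1+2+5, 3+6 or 4, KC Sham6w replicates 3 or 4, KC CBDL2w replicates 1, 3 or 4 or Mo CBDL2w replicates 3 or 4 left out. That for MoMF minus Mo, also 1, was 0 with MoMF Sham6w replicate 1+2+5, Mo Sham6w replicates 1+2+5 or 4, MoMF CBDL2w replicates 1 or 2 or Mo CBDL2w replicates 2, 3 or 4 left out, 2 with MoMF CBDL2w replicate 4 left out and 3 with MoMF Sham6w replicates 3 or 4+6 left out. For CBDL6w the effect on Cox7a2l was lower in KC than in Mo (-1.22 ± 0.33 SE, limma adjusted p = 0.044) and that on Ndufs3 higher in MoMF than in Mo (3.97 ± 0.91 SE, limma adjusted p = 0.026), beside 0.397%, 1.58% and 0.649%. The members' share was below that of all genes for KC minus Mo, and for MoMF minus Mo it was 1 member. The CBDL6w count of 0 for KC minus MoMF was 1 with KC CBDL6w replicate 3 left out, 2 with MoMF Sham6w replicate 4+6 left out and 5 with MoMF Sham6w replicate 3 left out. The CBDL6w count of 1 for KC minus Mo was 0 with KC CBDL6w replicates 1, 2 or 3, Mo CBDL6w replicates 1 or 2, Mo Sham6w replicates 1+2+5 or 3+6 or KC Sham6w replicates 2 or 4 left out. That for MoMF minus Mo, also 1, was 0 with Mo CBDL6w replicate 3, MoMF Sham6w replicate 1+2+5 or Mo Sham6w replicates 3+6 or 4 left out and 2 with MoMF Sham6w replicate 3 left out. Between KC and MoMF the CBDL2w and CBDL6w effects gave no call, with 2 mitochondrial and 12 and 15 nuclear encoded members at an unadjusted p below 0.05, and edgeR and DESeq2 called none.

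Promoters of nuclear encoded members were read for motifs of factors known to bind genes of the respiratory chain, and the windows of 4 called members are shown because each holds a match. The windows run 250 bases before to 50 after the start of the gene, from RefSeq on GRCm38.p6, all on the minus strand: Atp5l (chr9:44920693-44920992), which rose in KC of DSS; Ndufa6 (chr15:82354242-82354541) and Cox8a (chr19:7217567-7217866), which rose in Mo of CBDL2w; and Uqcrh (chr4:116075021-116075320), which rose in Mo of CBDL2w, CBDL6w and CBDL+DSS. Capitals mark GCATGCGC (core of the NRF1 motif), CCGGAAG (core of the ETS motif, bound by GABPA) and AAGATGGC (core of the YY1 motif), on either strand; none of the marked matches overlaps another. The examples were chosen after their values were seen.
Atp5l: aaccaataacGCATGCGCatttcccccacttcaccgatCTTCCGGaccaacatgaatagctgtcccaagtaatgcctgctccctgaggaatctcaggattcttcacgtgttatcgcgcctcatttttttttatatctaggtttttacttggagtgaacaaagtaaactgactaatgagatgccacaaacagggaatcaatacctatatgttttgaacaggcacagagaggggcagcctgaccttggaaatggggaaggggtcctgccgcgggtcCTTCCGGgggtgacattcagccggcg
Ndufa6: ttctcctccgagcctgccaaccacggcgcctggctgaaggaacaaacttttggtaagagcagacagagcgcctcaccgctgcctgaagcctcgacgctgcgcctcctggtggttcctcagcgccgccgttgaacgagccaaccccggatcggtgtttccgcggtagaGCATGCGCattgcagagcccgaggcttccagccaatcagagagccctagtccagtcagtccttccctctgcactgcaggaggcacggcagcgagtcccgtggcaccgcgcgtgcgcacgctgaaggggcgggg
Uqcrh: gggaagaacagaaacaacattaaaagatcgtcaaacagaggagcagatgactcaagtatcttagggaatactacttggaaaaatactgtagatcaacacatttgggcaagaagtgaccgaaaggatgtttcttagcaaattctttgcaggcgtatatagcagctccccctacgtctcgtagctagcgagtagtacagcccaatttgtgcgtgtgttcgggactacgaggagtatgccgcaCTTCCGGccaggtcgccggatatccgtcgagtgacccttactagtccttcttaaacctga
Cox8a: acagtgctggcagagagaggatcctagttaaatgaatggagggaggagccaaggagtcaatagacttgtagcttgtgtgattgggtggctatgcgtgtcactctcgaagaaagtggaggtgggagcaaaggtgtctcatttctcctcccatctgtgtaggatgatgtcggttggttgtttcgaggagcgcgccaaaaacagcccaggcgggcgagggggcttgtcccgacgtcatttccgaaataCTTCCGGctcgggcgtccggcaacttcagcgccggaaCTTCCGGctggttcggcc

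The NRF1 core starts 240 bases before the start in Atp5l, with 1 of its ETS cores 212 before it, and 83 before it in Ndufa6; an ETS core lies 10 bases before the start in Uqcrh, and 5 before and 32 after it in Cox8a. Of 89 nuclear symbols (Atp5o counted once), 72 had a promoter in the table, with 77 windows. The NRF1 core was in 15.6% of these windows and in 2.71% of all 32851 promoter windows, the ETS core in 23.4% and 8.86%, and the YY1 core in 13% and 2.75%. Of the 25 nuclear encoded members called in an injury comparison or interaction, 20 had a promoter, with 22 windows, of which 9.09%, 27.3% and 13.6% held the NRF1, ETS and YY1 cores. A match is a description of these letters and not of binding.

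Other mitochondrial genes gave few calls. Of the subunits of the mitochondrial ribosome, which makes the 13 mitochondrial encoded proteins, 1 of 48 rose in KC of DSS (Mrpl20, log2 change 1.85 ± 0.56; limma adjusted p = 0.045), and 3 of 42 in Mo of CBDL2w (Mrps25, Mrpl52 and Mrpl33), beside 3.34% and 8.05% of all genes that rose. Of the genes for maintenance of mitochondrial DNA, 1 rose and 0 fell of 10 in KC of DSS: Slirp, which stabilises mitochondrial mRNAs (0.89 ± 0.27; limma adjusted p = 0.044). Idh3a, a subunit of isocitrate dehydrogenase in the tricarboxylic acid cycle, fell in KC of CBDL6w (-2.18 ± 0.46; limma adjusted p = 0.009) and was higher in KC of CBDL+DSS than of CBDL6w (2.60 ± 0.46; limma adjusted p = 0.0062). In MoMF Prdx5, a mitochondrial peroxiredoxin, rose in CBDL2w, DSS and CBDL+DSS. Its log2 changes were 1.01, 1.44 and 1.26 (limma adjusted p = 0.048, 0.012 and 0.0051). Sod2, the mitochondrial superoxide dismutase, rose in DSS (1.24, limma adjusted p = 0.035). Of all genes in MoMF 1.69%, 1.27% and 4.61% rose in CBDL2w, DSS and CBDL+DSS. Idh3a, Prdx5 and Sod2 are named among up to 3 called genes per list. Values of Prdx5 and Sod2 without MoMF Sham6w replicate 1+2+5 are not given. Glycolysis and lactate genes moved in Mo: 9 of 13 tested rose in CBDL2w (median 1.50), 5 in CBDL6w (1.26), none in DSS and 8 in CBDL+DSS (1.43), with none falling, beside 8.05%, 5.87%, 1.05% and 7% of all genes that rose. Ldha, lactate dehydrogenase A, rose in Mo of CBDL6w (1.27 ± 0.24; limma adjusted p = 0.0011) and of CBDL+DSS (1.65 ± 0.24; limma adjusted p = 0.00011), and in MoMF of CBDL6w (0.99 ± 0.21; limma adjusted p = 0.018) and DSS (0.85 ± 0.21; limma adjusted p = 0.038).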

How the data were processed

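Gene expression was measured in 58 libraries of liver KC, MoMF and Mo in 15 groups, with a 3' mRNA tag kit that adds unique molecular identifiers, per the labels' protocols. The deposited table holds 25307 genes as a signal: whole reads per gene that the authors divided by 1 size factor per library. Divided by the value of 1 read, 100% of the values came out whole within 0.01, which gave 118687 to 521954 reads per library. These recovered reads served for depth, shares of reads and the edgeR and DESeq2 alternatives. STAR 2.7.5b, RSEM 1.3.1, Trimmomatic (versions 0.39 and 0.39-1), UMI-tools 1.0.1, DESeq2 and the build GRCm38.p6 are listed by the submitters' processing notes, without order or settings. The annotation and the strand setting of the counting are not given in the labels or the file, so reads of overlapping or antisense genes cannot be told apart. Symbols came from GENCODE mouse release 21, which held 25272 of the identifiers and not the other 35.

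Genes were tested where 3 or more libraries of a fit had a normalised count of at least 10. Log2(normalised count + 1) was fitted with limma 3.58.1 in R 4.3.3, with an intensity trend and robust moderation, and two-sided p-values were Benjamini-Hochberg adjusted over all genes tested. A call is an adjusted p under 0.05. Changes on that log2 scale understate those of low genes. Each cell type had its own fit over its 5 injury groups, and 1 fit over all libraries served the comparisons between cell types. The functions were tested on simulated data.

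Members were taken by symbol, and the members, marker lists and lists of other mitochondrial genes were chosen with earlier results of these data known. The text names the 13 mitochondrial encoded members, a set of nuclear members, tissue-restricted isoforms, up to 6 called nuclear members per direction and up to 3 called genes per other list. Shares of reads and their log2 ratio are given as descriptions. Other settings tried were a pseudocount of 5, all genes without the filter, equal library totals (over all reads, or outside the mitochondrial genome), edgeR 4.0.16, DESeq2 1.42.0, the replicate number as a block, libraries of a single replicate number, each library left out in turn, and 3 other ways of taking the ratio.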

Additional observations from a re-analysis of the deposited data

Results flagged for a closer look

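In 29 cases the effect of an injury differed between cell types, or the effect of DSS differed between ligated and unligated livers, by limma's test of the difference itself, adjusted over all genes tested. The values are differences of log2 changes. The change with DSS in ligated minus that in unligated livers in KC was -1.83 for Atp5g1, 1.14 for mt-Nd1, 1.18 for mt-Co3, 1.22 for mt-Nd4, 1.24 for mt-Atp6, 1.27 for mt-Co2 and 1.31 for mt-Cytb (limma, adjusted p between 0.0025 and 0.047). For MoMF the change with DSS in ligated minus that in unligated livers was -4.33 for Ndufs3, 1.60 for mt-Co3, 1.62 for mt-Nd1, 1.63 for mt-Nd5, 1.68 for mt-Co1, 1.78 for mt-Atp6, 1.92 for mt-Cytb, 1.93 for mt-Nd2, 2.08 for mt-Nd4 and 2.19 for mt-Nd4l (limma, adjusted p between 0.0013 and 0.028). For Mo the change with DSS in ligated minus that in unligated livers was -1.20 for Uqcrh (limma, adjusted p = 0.049).

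The CBDL2w effect in KC minus that in Mo was -1.09 for Uqcrh (limma, adjusted p = 0.043). The CBDL2w effect in MoMF minus that in Mo was -1.08 for Ndufa6 (limma, adjusted p = 0.035). The CBDL6w effect in KC minus that in Mo was -1.22 for Cox7a2l (limma, adjusted p = 0.044). The CBDL6w effect in MoMF minus that in Mo was 3.97 for Ndufs3 (limma, adjusted p = 0.026). The DSS effect in KC minus that in MoMF was 3.40 for Cox6a2 (limma, adjusted p = 0.011). The CBDL+DSS effect in KC minus that in MoMF was -1.61 for mt-Nd3 and -1.23 for mt-Cytb (limma, adjusted p between 0.023 and 0.045). The CBDL+DSS effect in KC minus that in Mo was 3.35 for Cox6a2 (limma, adjusted p = 0.011). The CBDL+DSS effect in MoMF minus that in Mo was -1.24 for Cox7a2l, -1.08 for Ndufa6 and 2.37 for Sdhc (limma, adjusted p between 0.015 and 0.04). For these differences between cell types, the share of members called was mostly near or below that of all genes, as given above. Cox6a2 did not pass the low-value filter within KC or MoMF.

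In 23 of 286 groups of 4 looked at (a member or a share of reads in 1 cell type and injury group), 1 library stood apart from the other 3 by more than Dixon's critical share of the group's range. For independent values with a normal spread chance does this in about 1 in 20 groups. The groups here share libraries, so they are not independent. With 3 libraries at 0, any read in the other is flagged, as for Cox6a2. The count of 23 can therefore not be set against that rate. Mitochondrial encoded members held 2.96% of reads in MoMF CBDL6w replicate 2, against 1.66% to 1.83% in the other 3. mt-Nd1 had a normalised count of 1140.0 in MoMF CBDL6w replicate 2 (other 3: 596 to 618). mt-Nd3 had a normalised count of 341 in MoMF CBDL6w replicate 2 (other 3: 173 to 191). mt-Cytb had a normalised count of 831 in MoMF CBDL6w replicate 2 (other 3: 394 to 439.5). mt-Co3 had a normalised count of 795 in Mo DSS replicate 3 (other 3: 659.9 to 679). Ndufs3 had a normalised count of 3.98 in MoMF CBDL2w replicate 4 (other 3: 8.81 to 9.81), 4.51 in Mo CBDL2w replicate 2 (other 3: 10.6 to 11.5) and 33.1 in Mo DSS replicate 4 (other 3: 10.7 to 12.7). Ndufa6 had a normalised count of 272 in Mo CBDL2w replicate 1 (other 3: 373 to 385). Sdhc had a normalised count of 8.36 in KC CBDL+DSS replicate 6 (other 3: 19.1 to 20.9) and 5.12 in Mo CBDL+DSS replicate 2 (other 3: 8.13 to 8.49). Uqcrq had a normalised count of 97.1 in KC CBDL2w replicate 3 (other 3: 51.4 to 57.1) and 77.2 in KC Sham6w replicate 4 (other 3: 43.7 to 47.9). Uqcrh had a normalised count of 66.5 in KC CBDL+DSS replicate 2 (other 3: 84.7 to 88.3). Cox4i1 had a normalised count of 63.1 in MoMF DSS replicate 5+6 (other 3: 28.4 to 32.7) and 88.6 in Mo CBDL+DSS replicate 6 (other 3: 56.3 to 60.9). Cox6a2 had a normalised count of 1.39 in KC CBDL+DSS replicate 1+3 (other 3 at 0), 0.871 in KC CBDL2w replicate 1 (other 3 at 0), 0.993 in KC Sham6w replicate 3 (other 3 at 0) and 0.995 in MoMF CBDL2w replicate 4 (other 3 at 0). Atp5g1 had a normalised count of 56.3 in Mo CBDL+DSS replicate 2 (other 3: 27.8 to 32.6). Atp5b had a normalised count of 149 in KC DSS replicate 2 (other 3: 76.4 to 81.4) and 94.1 in Mo CBDL+DSS replicate 2 (other 3: 47.9 to 51.7).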

How the results depend on the processing

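A count of members called is read here as changed when it moved by over 1.5 times. The ratio of mitochondrial to nuclear encoded reads is read as unchanged when a difference moved by less than the larger of the groups' SDs. It changed in none of its 18 comparisons under any of 3 other ways of taking it (without mt-Nd6, mt-Nd4l and mt-Atp8, over subunits alone, or as a mean of log2 values). The first ways drop few reads and could move it little. In KC CBDL6w replicate 1 the mitochondrial share went from 2.86% to 2.80% without these genes. The nuclear share went from 1.10% to 1.08% over subunits alone. Of 69 counts, DESeq2 changed 22, edgeR 16, equal library totals 7, equal totals outside the mitochondrial genome 5, no filter 26, a pseudocount of 5 8 and libraries of a single replicate number 34; the cause was not tested in any of them, though the last leaves fewer libraries and no filter tests more genes. Depth may limit these counts, which was not tested. Libraries held 118687 to 521954 reads, so that a low member rests on few reads in each.

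All genes called higher and lower were split differently under other scalings. In KC of DSS against Sham6w the counts were 333 and 205 with equal totals and 269 and 231 with equal totals outside the mitochondrial genome, against 206 and 280 with the deposited scaling; edgeR on the recovered whole reads called 190 and 241. For KC of CBDL2w they were 130 and 88, 96 and 92 and, as deposited, 67 and 100. KC of CBDL6w had 101 and 100 with equal totals, 133 and 145 with DESeq2 and 75 and 125 as deposited. The KC interaction had 181 and 183 with equal totals, 253 and 238 with DESeq2 and 231 and 140 as deposited. MoMF of DSS had 60 and 58 with edgeR, 104 and 100 with DESeq2 and 77 and 49 as deposited, and MoMF of CBDL2w had 69 and 99 with edgeR and 103 and 83 as deposited. KC over MoMF in Sham6w had 478 and 551 with DESeq2 and 688 and 516 as deposited. The median log2 change of all genes lay between -0.12 and 0.14 with the deposited scaling and between -0.14 and 0.09 with equal totals, over the 21 comparisons within a cell type against Sham6w or CBDL6w, of the interaction, and between cell types of Sham6w.

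Comparisons without a named reference below are against Sham6w, and the interaction is the DSS effect with ligation minus that without. With DESeq2, mitochondrial calls numbered 2 for MoMF CBDL6w, MoMF CBDL+DSS and the Mo interaction and 4 for Mo DSS. With DESeq2, nuclear calls numbered 1 for KC CBDL2w, KC CBDL+DSS over CBDL6w, MoMF CBDL+DSS over CBDL6w and Sham6w MoMF over Mo. MoMF DSS had 3, and the KC interaction had 4, and Sham6w KC over MoMF had 6, and the Mo interaction had 11, and Mo DSS had 12. With DESeq2, calls over all members numbered 0 for DSS MoMF over Mo, MoMF minus Mo in the CBDL6w effect, KC minus MoMF in the DSS effect and KC minus Mo in the CBDL+DSS effect. MoMF minus Mo in the DSS effect had 1. CBDL2w MoMF over Mo, MoMF minus Mo in the CBDL2w effect and KC minus Mo in the CBDL6w effect had 2. CBDL2w KC over Mo had 10. With edgeR, mitochondrial calls numbered 0 for MoMF CBDL+DSS, Mo DSS and Mo CBDL+DSS. With edgeR, nuclear calls numbered 0 for MoMF CBDL2w, 1 for Sham6w MoMF over Mo, 3 for Mo DSS and 5 for Sham6w KC over MoMF. With edgeR, calls over all members numbered 0 for DSS MoMF over Mo, MoMF minus Mo in the CBDL2w effect, KC minus Mo in the CBDL6w effect, MoMF minus Mo in the CBDL6w effect, KC minus MoMF in the DSS effect, KC minus MoMF in the CBDL+DSS effect and KC minus Mo in the CBDL+DSS effect. CBDL2w KC over MoMF had 4, and CBDL2w KC over Mo had 8. With equal library totals, nuclear calls numbered 1 for KC CBDL2w, 2 for the KC interaction, 3 for MoMF DSS and 9 for Sham6w KC over MoMF. With equal library totals, calls over all members numbered 0 for KC minus Mo in the CBDL2w effect and KC minus Mo in the CBDL6w effect. KC minus MoMF in the CBDL+DSS effect had 1. With equal totals outside the mitochondrial genome, mitochondrial calls numbered 0 for Mo CBDL+DSS. With equal totals outside the mitochondrial genome, nuclear calls numbered 2 for the KC interaction. With equal totals outside the mitochondrial genome, calls over all members numbered 0 for KC minus Mo in the CBDL2w effect and KC minus Mo in the CBDL6w effect. KC minus MoMF in the CBDL+DSS effect had 1. With no filter, mitochondrial calls numbered 0 for Mo DSS and Mo CBDL+DSS, 1 for MoMF CBDL6w and Mo CBDL6w and 3 for the KC interaction. MoMF CBDL+DSS over CBDL6w had 5, and KC DSS had 6. With no filter, nuclear calls numbered 0 for MoMF CBDL2w, MoMF CBDL+DSS, Mo DSS and the Mo interaction and 2 for KC DSS. Mo CBDL6w and Mo CBDL+DSS had 3, and Sham6w KC over MoMF had 7, and Mo CBDL2w had 8. With no filter, calls over all members numbered 0 for CBDL+DSS MoMF over Mo, KC minus Mo in the CBDL2w effect, MoMF minus Mo in the CBDL2w effect and KC minus Mo in the CBDL6w effect. CBDL6w MoMF over Mo, KC minus Mo in the DSS effect and KC minus MoMF in the CBDL+DSS effect had 1. CBDL2w KC over MoMF and DSS KC over Mo had 4, and CBDL6w KC over MoMF had 7. With a pseudocount of 5, mitochondrial calls numbered 1 for MoMF CBDL6w, 2 for MoMF CBDL+DSS and 8 for KC CBDL6w. With a pseudocount of 5, nuclear calls numbered 2 for MoMF CBDL6w and 5 for MoMF DSS. With a pseudocount of 5, calls over all members numbered 1 for KC minus Mo in the DSS effect and 2 for KC minus Mo in the CBDL2w effect. KC minus MoMF in the CBDL+DSS effect had 4. With libraries of a single replicate number, mitochondrial calls numbered 0 for KC CBDL+DSS, MoMF CBDL+DSS, Mo CBDL6w, Mo DSS, Mo CBDL+DSS and Sham6w KC over MoMF. MoMF DSS had 1, and the KC interaction had 3, and Sham6w KC over Mo had 4, and KC CBDL2w had 5. With libraries of a single replicate number, nuclear calls numbered 0 for MoMF CBDL2w, MoMF CBDL6w, MoMF DSS, MoMF CBDL+DSS, Mo CBDL6w, Mo DSS, Mo CBDL+DSS, the Mo interaction and Sham6w MoMF over Mo. Sham6w KC over MoMF had 1, and Mo CBDL2w and Sham6w KC over Mo had 2, and KC DSS had 5. With libraries of a single replicate number, calls over all members numbered 0 for DSS MoMF over Mo, KC minus Mo in the CBDL2w effect, MoMF minus Mo in the CBDL2w effect, KC minus Mo in the CBDL6w effect, MoMF minus Mo in the CBDL6w effect, KC minus MoMF in the DSS effect, KC minus MoMF in the CBDL+DSS effect, KC minus Mo in the CBDL+DSS effect and MoMF minus Mo in the CBDL+DSS effect. CBDL+DSS MoMF over Mo had 1, and CBDL+DSS KC over Mo had 4.

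Replicate numbers are shared between groups, so a fit with the replicate block was also made. A joined label such as 1+2+5 counted as a number of its own there. Within a cell type, a library whose label no other library had was fitted exactly and had no weight. MoMF of Sham6w then rested on replicate 3, Mo of Sham6w on replicate 4 and KC of CBDL+DSS on replicate 2. A changed count with the block therefore does not show an effect of shared numbers. Of the deviations from group means, no pair of libraries with the same number correlated above 0.1: the median r was 0.035 over 45 pairs of cell types within an injury group and 0.00081 over 72 pairs of injury groups within a cell type. Nor did any pair with different numbers, with medians of -0.011 over 180 pairs and -0.00041 over 376, so this cut-off does not separate the kinds. Between cell types, pairs with the same number had the higher median in each injury group, such as 0.041 against -0.016 in DSS. The main tests do not treat the libraries as paired, so dependence between cell types with the same number is not modelled there and is not excluded. With the replicate block, mitochondrial calls numbered 0 for KC CBDL+DSS, the KC interaction, MoMF CBDL2w, MoMF CBDL+DSS, Mo CBDL6w, Mo DSS, Mo CBDL+DSS and Sham6w KC over Mo. KC CBDL6w had 1, and KC CBDL2w and Sham6w MoMF over Mo had 2, and KC DSS had 6. With the replicate block, nuclear calls numbered 0 for the KC interaction, MoMF CBDL2w, MoMF CBDL6w, MoMF DSS, MoMF CBDL+DSS, the MoMF interaction, Mo DSS, Mo CBDL+DSS and the Mo interaction. Mo CBDL2w and Mo CBDL6w had 2, and Sham6w KC over Mo had 3, and KC DSS had 4, and Sham6w KC over MoMF had 5. Sham6w MoMF over Mo had 8. With the replicate block, calls over all members numbered 0 for DSS MoMF over Mo, KC minus Mo in the CBDL2w effect, KC minus Mo in the CBDL6w effect, KC minus MoMF in the DSS effect, KC minus MoMF in the CBDL+DSS effect and KC minus Mo in the CBDL+DSS effect. CBDL2w MoMF over Mo, CBDL+DSS KC over MoMF and CBDL+DSS MoMF over Mo had 1. MoMF minus Mo in the CBDL6w effect and MoMF minus Mo in the DSS effect had 2. MoMF minus Mo in the CBDL2w effect had 4, and CBDL2w KC over Mo had 8. MoMF minus Mo in the CBDL+DSS effect had 10. This block changed 41 of the 69 counts, the most of the settings above. mt-Nd3 in MoMF of CBDL+DSS against Sham6w, a called log2 change of 1.18 in the main fit, was at -0.08 with the replicate block. MoMF of Sham6w rested on replicate 3 alone in the block fit, so these values do not rest on the same libraries.

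With 1 library left out at a time, mitochondrial calls lay between 0 and 1 for Mo CBDL+DSS, MoMF CBDL2w and Sham6w MoMF over Mo. Mo DSS and MoMF CBDL6w had between 0 and 2, and Mo CBDL2w, Mo CBDL6w and MoMF CBDL+DSS had between 0 and 4. KC CBDL6w had between 0 and 10, and KC CBDL2w had between 0 and 11, and KC CBDL+DSS had between 1 and 2. MoMF DSS had between 1 and 7, and the KC interaction had between 3 and 9. Sham6w KC over Mo had between 3 and 10, and KC DSS had between 3 and 11. MoMF CBDL+DSS over CBDL6w had between 4 and 9. Nuclear calls on the same basis lay between 0 and 1 for KC CBDL2w and the Mo interaction and 0 and 2 for the MoMF interaction and MoMF CBDL6w. MoMF CBDL2w had between 0 and 5, and Mo DSS and MoMF DSS had between 0 and 8. MoMF CBDL+DSS had between 0 and 10, and the KC interaction had between 1 and 4. KC DSS had between 1 and 7, and Sham6w KC over Mo had between 2 and 5. Mo CBDL+DSS and Sham6w MoMF over Mo had between 2 and 6, and Mo CBDL6w had between 3 and 7. Sham6w KC over MoMF had between 3 and 19, and Mo CBDL2w had between 5 and 15. Calls over all members likewise lay between 0 and 1 for KC minus Mo in the CBDL+DSS effect, KC minus Mo in the CBDL2w effect, CBDL2w MoMF over Mo, KC minus Mo in the CBDL6w effect, KC minus Mo in the DSS effect and DSS MoMF over Mo. MoMF minus Mo in the CBDL6w effect and KC minus MoMF in the DSS effect had between 0 and 2. CBDL+DSS MoMF over Mo, MoMF minus Mo in the CBDL2w effect and CBDL6w MoMF over Mo had between 0 and 3. KC minus MoMF in the CBDL2w effect had between 0 and 4. KC minus MoMF in the CBDL6w effect had between 0 and 5. KC minus MoMF in the CBDL+DSS effect had between 0 and 8. CBDL+DSS KC over MoMF had between 1 and 3. MoMF minus Mo in the CBDL+DSS effect had between 1 and 6. CBDL2w KC over MoMF had between 1 and 8, and DSS KC over Mo had between 2 and 10. CBDL2w KC over Mo had between 3 and 7, and CBDL6w KC over MoMF had between 5 and 14. Libraries that moved a count by over 1.5 times are named beside it.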
